A study of Mus musculus with 47 samples.

Results

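The gene expression profile of mouse gastrocnemius, a mixed-fibre muscle of the calf (SM in the labels), was compared with those of interscapular brown fat (BAT), inguinal white fat (IWAT) and liver in mice on the control diet. The comparison took the 6 SM Control libraries and the 18 Control libraries of the other tissues, 24 of the 47 libraries of the series, and each gene was measured against the mean of the 3 tissue means. All were 3' tag libraries (SOLiD SAGE), in which a transcript is counted from a short sequence near its 3' end, from male C57BL/6J mice fed the control diet for 11 weeks from 5 weeks of age, kept at 23 C, with a 5 h fast before dissection. The same 6 animals gave all 4 tissues. A second group of 6 mice of the same strain, sex and age received a methionine-restricted diet (MR) for the same time, and its 23 libraries, 5 of them SM, served as other animals in which to read the same contrast. Per the labels the tissues were dissected, with no sorting of cells described, so a library can hold RNA of every cell type in the piece taken.

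Skeletal muscle fibres contract when calcium released from the sarcoplasmic reticulum lets myosin pull on actin within the sarcomere. Fast fibres carry fast myosin isoforms and rely mostly on glycogen, glycolysis and creatine phosphate, whereas slow fibres carry slow isoforms and rely mostly on mitochondrial respiration. Many muscle proteins have a close relative that serves the same step in other tissues, and the genes of the muscle forms are switched on by the MyoD family, MEF2 and the homeobox factors related to Six2.

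Depth ran from 4881391 to 13105763 counts per control library, and between 12673 and 16386 genes had a count. A count of 3 in a library, taken as the limit that a count of 0 allows, was 0.186 to 0.515 CPM (counts scaled to library size), for counting error only. The SM libraries were alike, with a median rank correlation to the other SM libraries of 0.949 to 0.963. Libraries IWAT3106 and IWAT3115, named here by tissue and animal as in the labels, stood apart from the other IWAT libraries, at 0.697 and 0.775. The label of the muscle libraries was checked on a set of 20 contractile and energy genes, Ckm and Mb among them. Their summed level was 210428, 287884 and 398871 CPM (lowest, median and highest library) in SM. In BAT the sum was 421, 3377 and 33004 CPM. In IWAT it was 101, 536 and 3132 CPM, and in Liver 51.3, 125 and 1564 CPM. Every SM library lay above every library of the other tissues for all 20 genes, but BAT spread widely. BAT3112, BAT3114 and BAT3106 held 11.4, 5.66 and 2.15 percent of the SM mean of this sum, and the other BAT libraries between 0.146 and 0.190 percent. Their source was not tested. The median difference of the 20 genes from the mean of the other tissues was 7.63 on the log2 scale with these 3 libraries and 9.37 without them, so differences of the main lists and of several muscle genes are given both ways.

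**Figure D1:**
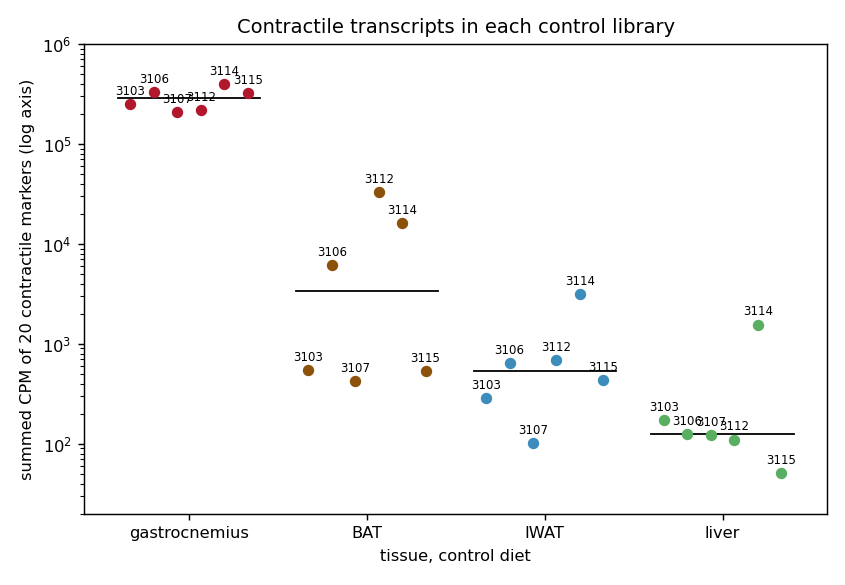
Summed level of 20 muscle genes (CPM, log axis) in each of the 24 control libraries, by tissue, with 1 point per library. The 6 SM libraries sit between 210428 and 398871 CPM, whereas the BAT libraries spread from 421 to 33004 CPM.

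Of 12854 genes tested, 3553 were higher in muscle than in the mean of the other tissues (27.6 percent) and 3850 were lower (30.0 percent), by edgeR's quasi-likelihood test with Benjamini-Hochberg adjustment at 0.05. In a stricter count, 1513 genes were higher than in each of the 3 tissues (11.8 percent) and 1356 lower than in each (10.5 percent). Every SM library lay above every other control library for 1096 genes (8.53 percent) and under every other one for 566 (4.40 percent). Called in either direction were 57.6 percent. Counts within the gene lists below are to be read beside the 27.6 percent higher and 30.0 percent lower over all tested genes. Against single tissues, 21.5 percent were higher and 22.7 percent lower than in BAT, 24.6 and 31.2 percent than in IWAT, and 30.9 and 29.4 percent than in Liver. The median difference over all tested genes was -0.055 on the log2 scale. In these bulk libraries fewer cells of a type and less RNA per cell cannot be told apart. Without the 2 IWAT libraries that stood apart, the counts were 4320 higher and 4613 lower, and 2117 and 1898 against each tissue. Without the 3 BAT libraries with muscle transcripts they were 3554 and 3452, and 1445 and 1049.

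The 15 largest increases, among genes with every SM library above all others and at least 20 counts on average in SM, fell into a few groups. Myh4, Myom2, Mybpc2 and Actn3 encode parts of the fast sarcomere, and Cacng1 a subunit of the calcium channel of the muscle membrane. Ampd1 encodes muscle AMP deaminase and Slc16a3 the lactate exporter MCT4. Chad, Kera, Tnmd and Cilp2 are genes of tendon and cartilage matrix. Six2 encodes a homeobox transcription factor, Ostn the secreted peptide musclin, and Itgb1bp3 a nicotinamide riboside kinase; Gadl1 encodes a decarboxylase. Fitted differences ran from 8.21 (Ostn) to 9.75 (Six2) on the log2 scale.

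Six2 had 26, 47.4 and 83.6 CPM (lowest, median and highest) in SM. It had at most 0.523 CPM in BAT and 0.248 CPM in IWAT, and no count in any Liver library. No library of another tissue came near the SM libraries. The difference was 9.75 ± 0.42 (log2, SE; adjusted p = 1.05e-12, edgeR). A fitted value of this kind depends on the prior count wherever a tissue has almost no counts: against Liver the level was at least 146-fold higher, with 3 counts per library as the floor, and against IWAT, with 2 counts in all, the ratio was 1364 (95 percent counting interval 377 to 11267). Six2 lies at chr17:85662736-85688254 (GRCm38.p6).

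The contractile apparatus of fast fibres showed the most uniform difference. All 16 genes of the fast list were higher in muscle, 15 of them than in each tissue, and in all 16 every SM library lay above every other library. Their median difference was 7.63 on the log2 scale, against -0.055 over all tested genes. Without the 3 BAT libraries the median was 9.54 and all 16 were higher than in each tissue. Without the 6 non-muscle libraries with the most muscle transcripts (these 3, IWAT3112, IWAT3114 and Liver3114) it was 11.76.

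Ckm, the creatine kinase that regenerates ATP in muscle, had 54612, 102316 and 138760.0 CPM in SM. BAT had 50.9, 415 and 10914 CPM, IWAT 6.54, 20.8 and 953 CPM, and Liver 5.19, 17.8 and 527 CPM. The SM libraries lay above all others, and the highest values outside muscle were BAT3112, IWAT3114 and Liver3114. The difference was 7.96 ± 1.08 (adjusted p = 1.01e-06), and it was 9.75 without the 3 BAT libraries and 11.93 without the 6 libraries. Myh4, the fastest of the adult myosin heavy chains, had 2239, 3234 and 4027 CPM in SM. Its highest library was 228 CPM in BAT, 21 CPM in IWAT and 5.82 CPM in Liver, and 3 of the 6 IWAT libraries had no count. The groups did not overlap, and the difference was 8.57 ± 0.99 (adjusted p = 8.79e-08), and 10.15 without the 3 BAT libraries. Acta1, the actin of skeletal thin filaments, had 1413, 2399 and 2935 CPM in SM. BAT reached 358 CPM, IWAT 24.9 CPM and Liver 18.7 CPM. Acta1 differed by 7.46 ± 0.99 (adjusted p = 7.30e-07), with no overlap, and by 9.35 without the 3 BAT libraries.

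The promoters of 4 of the genes with these patterns are shown because the motifs known from muscle genes can be read in them directly. Each runs from 250 bases before to 50 bases from the RefSeq start (GRCm38.p6), 5' to 3' on the gene's strand; the capitals mark CAGCTG, the form of the E-box bound by the MyoD family, and the CArG box bound by SRF. They lie at chr7:19410844-19411143 (plus strand, Ckm), chr8:123894726-123895025 (minus strand, Acta1), chr11:67237562-67237861 (plus strand, Myh4) and chr19:6384158-6384457 (plus strand, Pygm, the muscle glycogen phosphorylase).
Ckm: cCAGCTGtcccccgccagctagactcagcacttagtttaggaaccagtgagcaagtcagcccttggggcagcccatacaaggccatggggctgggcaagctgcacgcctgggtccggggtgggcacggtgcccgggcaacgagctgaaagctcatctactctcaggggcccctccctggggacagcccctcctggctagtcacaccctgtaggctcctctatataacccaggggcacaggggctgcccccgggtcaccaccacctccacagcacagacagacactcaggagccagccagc
Acta1: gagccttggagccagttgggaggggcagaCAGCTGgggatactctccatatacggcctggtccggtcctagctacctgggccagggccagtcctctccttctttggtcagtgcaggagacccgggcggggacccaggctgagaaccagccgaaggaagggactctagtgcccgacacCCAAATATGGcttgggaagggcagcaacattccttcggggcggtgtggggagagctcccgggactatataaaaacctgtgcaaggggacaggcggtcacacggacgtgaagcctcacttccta
Myh4: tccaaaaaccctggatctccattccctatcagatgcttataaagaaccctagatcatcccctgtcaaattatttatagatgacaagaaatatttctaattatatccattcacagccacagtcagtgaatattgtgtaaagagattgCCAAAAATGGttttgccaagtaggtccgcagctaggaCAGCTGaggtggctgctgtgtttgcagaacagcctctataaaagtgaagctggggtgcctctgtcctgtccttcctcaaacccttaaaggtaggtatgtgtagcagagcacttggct
Pygm: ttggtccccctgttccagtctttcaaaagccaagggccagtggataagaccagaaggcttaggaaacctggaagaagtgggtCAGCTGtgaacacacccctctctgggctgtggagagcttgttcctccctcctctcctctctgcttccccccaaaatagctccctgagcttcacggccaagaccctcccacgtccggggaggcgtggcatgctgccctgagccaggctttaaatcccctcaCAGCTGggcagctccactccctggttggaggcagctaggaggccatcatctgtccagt
Ckm has an E-box at the far end of the window, 249 bases before the start. Acta1 and Myh4 each have an E-box and a CArG box, and Pygm has 2 E-boxes, 168 and 8 bases before the start. CAGCTG, which reads the same on both strands, was present in 11 of the 16 marker genes with a listed promoter. A gene counted if any of its listed promoters (32851 in all) had the motif, so a gene with several had more chances to match. CAGCTG was found for 18.3 percent of 27025 genes with a promoter. The shares were 22.9 percent of 1029 genes higher in muscle than in each tissue, and 15.7 percent of 951 genes lower than in each. The CArG box, searched on both strands, was found for 1.81 percent of all genes with a promoter, 3.21 percent of the higher set and 1.58 percent of the lower set. It was found for 2 of the 16 marker genes, Acta1 and Myh4. The MEF2 site was found for 0.636, 2.14 and 0.421 percent of the same sets and for none of the 16 marker genes. These are matches of letters in a short window.

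Genes of the sarcomere scaffold and of calcium handling behaved like the fast contractile genes. All 39 tested scaffold genes were higher in muscle, 36 of them than in each tissue. Their median was 6.96, and 8.42 without the 3 BAT libraries. Titin (Ttn, the molecular spring of the sarcomere) differed by 7.6, nebulin (Neb, which spans the thin filament) by 7.27, telethonin (Tcap) by 7.20 and calpain 3 (Capn3, a muscle protease) by 7.31. Pdlim5 (0.66) had the smallest difference of the list. Of 30 genes of excitation-contraction coupling, 28 were higher in muscle and 25 higher than in each tissue, with a median of 6.73 (7.67 without the 3 BAT libraries, and 6.51 with genes at 0 in a tissue set to their bound). Ryr1, the calcium release channel, had 878, 1142 and 1597 CPM in SM. The highest BAT library had 169.9 CPM, the highest IWAT library 14.2 CPM and the highest Liver library 7.96 CPM. Ryr1 differed by 7.55 ± 0.91 (adjusted p = 1.64e-07), and its groups did not overlap; without the 3 BAT libraries the difference was 9.28. Cacna1s, the voltage sensor that opens it, differed by 7.79, and Clcn1, the chloride channel that stabilises the resting membrane, by 7.94. S100a1 (-0.83, adjusted p = 0.19) and Mtm1 (-0.38, adjusted p = 0.56) did not pass the test.

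**Figure D2:**
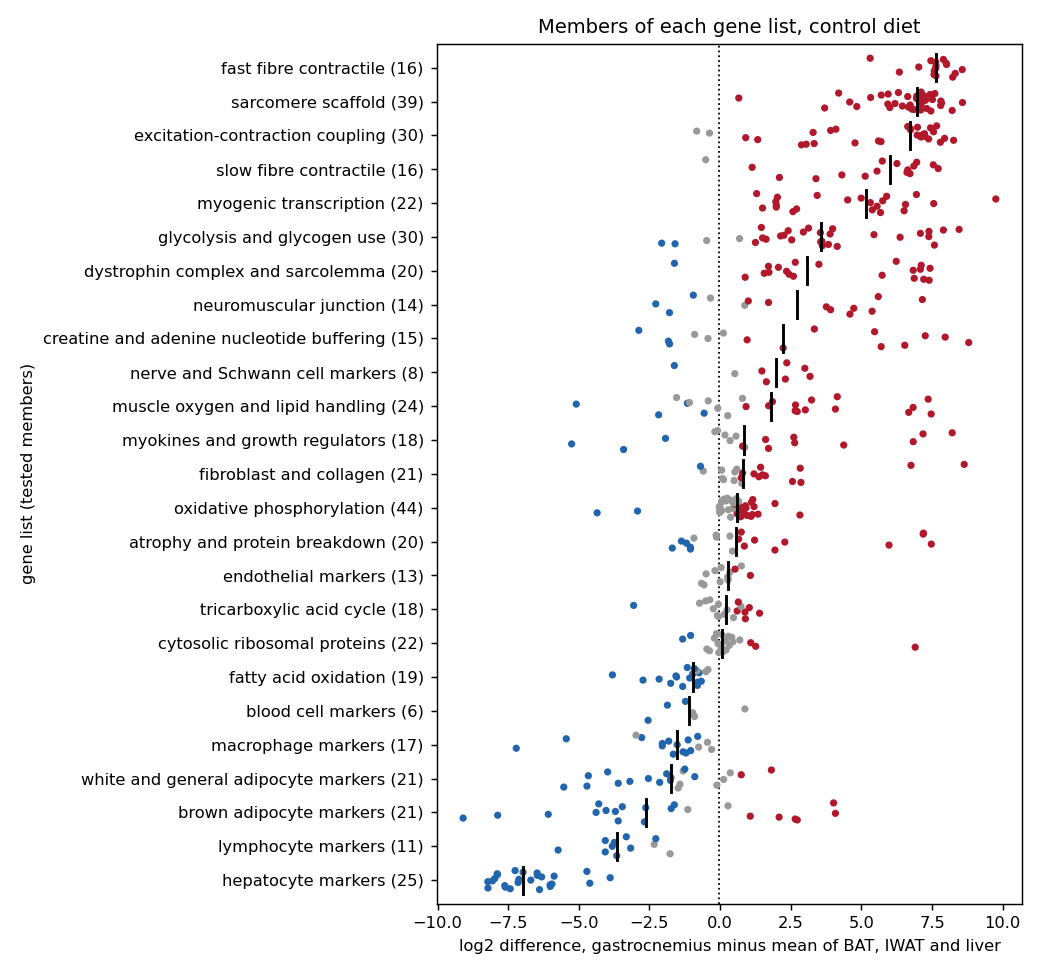
Difference between muscle and the mean of the other 3 tissues (log2) for each tested gene of the gene lists, with 1 point per gene and a bar at the list's median; red points passed the test as higher, blue as lower, and grey did not pass. The contractile, scaffold and calcium-handling lists lie near 6 to 8, the mitochondrial lists near 0, and hepatocyte markers near -7.

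Slow fibre genes were also higher in muscle, but less cleanly set off from BAT. Of 16 genes, 15 were higher than in the mean of the other tissues, with a median of 6.00 (5.57 with genes at 0 set to their bound). Only 8 were higher than in each tissue, and for 2 every SM library lay above all others. Myh7, the slow myosin heavy chain, had 11.9, 43.5 and 71.3 CPM in SM, and 0, 2.34 and 27.4 CPM in BAT. IWAT reached 0.472 CPM and Liver 0.379 CPM. The highest BAT library thus exceeded the lowest SM library, whereas IWAT and Liver had 9 libraries at 0 between them. The difference was 6.61 ± 0.79 (adjusted p = 1.47e-07). Myl2, the slow regulatory light chain, had 103, 416 and 1074 CPM in SM and 0.378, 54.9 and 450.0 CPM in BAT, again with overlap. It differed by 6.64 ± 1.02 against the mean of the tissues (adjusted p = 5.66e-06) and by 1.81 against BAT alone (adjusted p = 0.26). Without the 3 BAT libraries the list's median was 8.02 and 14 genes were higher than in each tissue. Tpm3 (-0.51, adjusted p = 0.064), which shares 1 of its 5 tags with another gene, did not pass the test.

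The muscle libraries themselves differed more in slow than in fast genes. The coefficient of variation over the 6 SM libraries had a median of 29.2 percent for the 16 fast genes and 60.8 percent for 15 slow genes, against 24.8 percent over 5869 genes with at least 100 counts on average. Relative to each gene's mean over SM, the median slow gene stood at 34 percent in SM3106 and 147 percent in SM3107. The other 4 lay between 76.5 and 113 percent. Myl2 ran from 22.6 percent of its mean in SM3114 to 235 percent in SM3107, and Myh2, the heavy chain of fast oxidative fibres, was at 26.2 percent in SM3106.

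**Figure D3:**
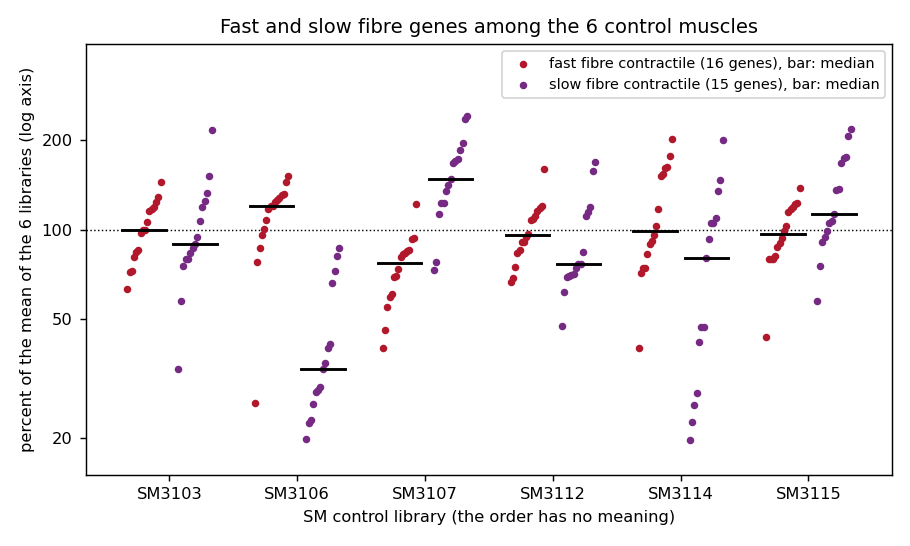
Level of each fast and slow fibre gene in the 6 SM control libraries, as percent of the gene's SM mean, on a log axis, with 1 point per gene and bars at the medians. The slow genes range from a median of 34 percent (SM3106) to 147 percent (SM3107).

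Most tested genes of the neuromuscular junction were higher in muscle. Of 14 tested genes (Chrnd, Chrng and Dok7 were not tested), 9 were higher (8 than in each tissue) and 3 lower, with a median of 2.74 (4.15 without the 3 BAT libraries). Chrna1, Chrnb1 and Chrne, subunits of the acetylcholine receptor, differed by 5.38, 3.91 and 4.73, and Rapsn, which clusters the receptor, by 5.60. Musk, the kinase that organises the synapse, had 2.72, 3.39 and 4.57 CPM in SM. IWAT had no count, and BAT and Liver had 1 count each over their 6 libraries. Every SM library was above all others, at least 9.56-fold higher than IWAT and with a ratio of 199.7 to BAT (95 percent counting interval 35.4 to 7930). Agrn, the nerve-derived ligand of this pathway, had 5.44, 9.33 and 14.5 CPM in SM. It had 18.9, 29.7 and 34.5 CPM in BAT, 12.8, 26.6 and 153 CPM in IWAT, and 23.4, 32 and 37.7 CPM in Liver. Agrn was lower in muscle by 1.79 ± 0.38 (adjusted p = 0.000306) and lower than in each tissue, with a small overlap with IWAT. Utrn and Erbb3 differed by -0.95 and -2.28. Without SM3103, SM3106 or SM3112 in turn, 1 gene of the list was lower instead of 3.

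The dystrophin complex, which links the fibre's cytoskeleton to the matrix, had 19 of 20 genes higher and 1 lower, Sntb1 (-1.62), with a median of 3.08. Sgca, a sarcoglycan of striated muscle, differed by 7.43, and Cav3, the muscle caveolin, by 6.87. Dmd itself differed by 2.59. All 22 tested myogenic transcription genes were higher, 16 of them than in each tissue, with a median of 5.15. That median was 3.97 with 5 genes at 0 in a tissue set to their bound, and 6.14 without the 3 BAT libraries. Myod1 had 19.8, 31.5 and 62.1 CPM in SM. It had 0, 1.04 and 8.25 CPM in BAT, and 2 counts in all in IWAT and 2 in Liver. No other library reached the SM libraries. The difference was 7.56 ± 0.64 (adjusted p = 5.75e-10), and the ratio to IWAT was 907 (counting interval 251 to 7495). Myf5 (6.56), Myog (5.32), Mef2c (5.55), Eya1 (6.51) and Vgll2 (6.94) had like differences, whereas the widely expressed Mef2a (1.99), Mef2d (1.99) and Srf (2.03) had smaller ones.

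Among genes of energy supply, those of glycogen use and glycolysis were mostly higher in muscle. Of 30 tested, 26 were higher, 15 of them than in each tissue, and Gpd1 (-2.07) and Gbe1 (-1.60) were lower; the median was 3.55. Pygm had 1789, 2662 and 3071 CPM in SM, against highest libraries of 247 CPM in BAT, 26 CPM in IWAT and 9.99 CPM in Liver. The groups did not overlap, and the difference was 7.90 ± 0.88 (adjusted p = 4.43e-08), and 9.51 without the 3 BAT libraries. Pygl, the liver form of the same enzyme, had 5.97, 6.69 and 16.6 CPM in SM. It had 687, 835 and 1066 CPM in BAT, 29.8, 248 and 483 CPM in IWAT, and 309, 515 and 549.8 CPM in Liver. Every SM library lay under every other library, with a difference of -5.81 ± 0.50 (adjusted p = 7.19e-10). Eno3, Pgam2 and Pfkm, the muscle enolase, phosphoglycerate mutase and phosphofructokinase, differed by 7.58, 7.38 and 6.37, and the first and second of these by 9.09 and 9.02 without the 3 BAT libraries. Gapdh is listed at 0 in every control library. Only uniquely mapped fragments were counted, so a gene with near-identical copies can be listed at 0, but whether this holds for Gapdh was not tested.

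Of 15 genes that buffer ATP, 9 were higher, 3 lower and 3 neither, with a median of 2.23. Ckm and Ckmt2 (7.26), the cytosolic and mitochondrial creatine kinases of muscle, were higher, as was the creatine transporter Slc6a8 (3.33). Ampd1, the muscle AMP deaminase, had 496, 1066 and 2083 CPM in SM. The other tissues reached 105 CPM in BAT, 4.96 CPM in IWAT and 1.90 CPM in Liver, and none overlapped with SM. Ampd1 differed by 8.80 ± 0.87 (adjusted p = 7.19e-09), and by 10.76 without the 3 BAT libraries. Ampd2, the form of liver and other tissues, differed by -1.83. Ckb, the brain-type creatine kinase, did not pass the test (-0.43, adjusted p = 0.30).

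The same contrast between family members was counted over 37 families of isoforms. The muscle-type member was higher in muscle in 36 families, and higher than in each tissue in 22. Of 53 other members tested, 28 were lower, 9 higher and 16 neither. Only 1 member per family was set as muscle-type, so the others are not all forms of other tissues. The 9 included Actc1 (8.21), Actn2 (7.10), Atp2a2 (3.39) and Tpm1 (5.31), which is also in the fast list. In 4 families (enolase, mitochondrial creatine kinase, COX subunit 7a and ribosomal protein L3) no other member was tested. In 23 of the remaining 33 the muscle-type member was higher and no other tested member was. Counted over all 33, whether or not another member was higher, 22 had a higher muscle-type member and at least 1 lower other member. The median difference was 6.37 for the muscle-type members and -1.33 for the others. The families were assembled from textbook knowledge of muscle forms, so the sign of the first member is not independent evidence.

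**Figure D4:**
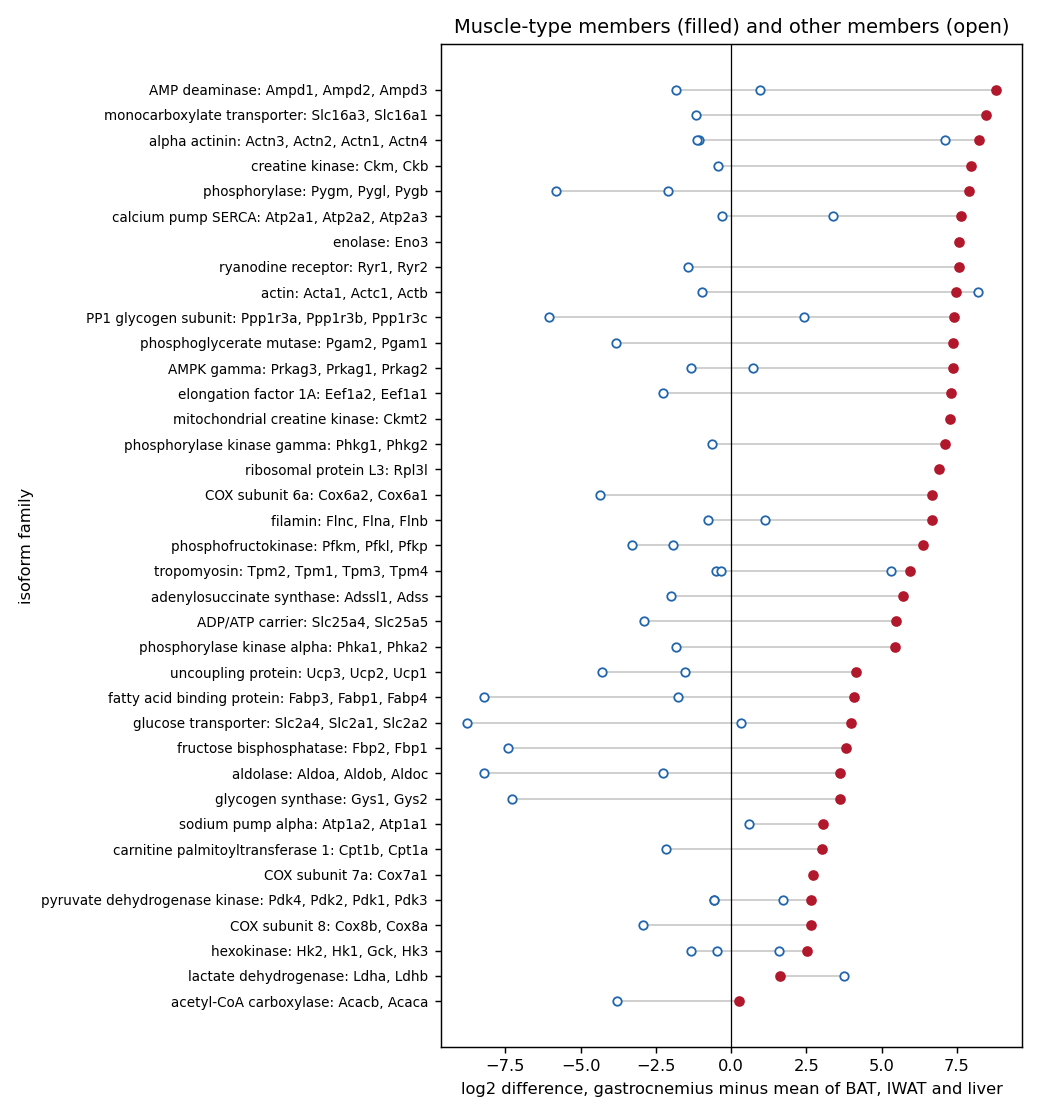
Difference between muscle and the mean of the other 3 tissues (log2) for the members of isoform families, with 1 row per family, the muscle-type member filled and the other members open. Muscle-type members have a median of 6.37 and the others of -1.33.

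Mitochondrial and translation genes included such pairs, with the muscle form higher and its counterpart lower. Slc25a4, the ADP/ATP carrier of heart and muscle, had 8826, 9727 and 26783 CPM in SM. BAT had 807, 1135 and 3514 CPM, IWAT 245, 404 and 669.9 CPM, and Liver 22.5, 24.8 and 138 CPM. It was higher in every SM library, by 5.47 ± 0.37 (adjusted p = 1.40e-11). Slc25a5, the carrier of other tissues, had 40.4, 50.7 and 65.9 CPM in SM and at least 183 CPM in every other library, a difference of -2.88 ± 0.21 (adjusted p = 5.34e-11). Cox6a2, the muscle form of a cytochrome oxidase subunit, had 1172, 1542 and 2018 CPM in SM. BAT had 0.759, 59.1 and 713 CPM, IWAT at most 24.3 CPM and Liver at most 12.9 CPM. No library overlapped with SM, and the difference was 6.67 ± 0.99 (adjusted p = 3.56e-06), although against BAT alone it did not pass the test (2.94, adjusted p = 0.076); without the 3 BAT libraries the difference from the mean of the tissues was 8.78. Cox6a1, its counterpart, had 12.6, 38.9 and 83.8 CPM in SM and at least 186 CPM elsewhere. The difference was -4.35 ± 0.43 (adjusted p = 5.91e-09). Eef1a2, the elongation factor of muscle and neurons, had 1266, 1567 and 1997 CPM in SM and at most 364 CPM in BAT. It differed by 7.31 ± 1.11 (adjusted p = 5.27e-06), and by 9.83 without the 3 BAT libraries, whereas Eef1a1 differed by -2.26 ± 0.51 (adjusted p = 0.000541). Mean levels of Eef1a1 were low, at 6.07 CPM in SM, 28.9 CPM in BAT, 12.98 CPM in IWAT and 65.4 CPM in Liver. Only uniquely mapped fragments were counted, and whether this lowered the Eef1a1 counts was not tested. Rpl3l, the muscle form of ribosomal protein L3, differed by 6.90; its counterpart Rpl3 was among the 18 of 40 listed ribosomal protein genes that were not tested. The other 21 tested ribosomal protein genes included 2 that were higher and 2 that were lower, and the 22 together had a median of 0.08.

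Where BAT is itself rich in mitochondria, muscle did not stand above it. Of 44 tested genes of oxidative phosphorylation, 22 were higher and 2 lower than the mean of the tissues, with a median of 0.60, and none was higher than in each tissue. Their summed level was 43261 to 77145 CPM in SM and 62046 to 98265 CPM in BAT. With Liver left out of the reference, 8 were higher. Of 18 genes of the tricarboxylic acid cycle, 6 were higher (33.3 percent, against 27.6 percent of all tested genes). The 1 lower gene, Pcx (-3.06), encodes pyruvate carboxylase. Without Liver in the reference 1 gene of this list was higher. Cox7a1, a subunit of heart and muscle cytochrome oxidase also known from brown fat, had 768, 973 and 1077 CPM in SM. BAT had 1286, 1715 and 2506 CPM, IWAT 45.4, 80.5 and 472 CPM, and Liver 2.55, 5.22 and 34 CPM. SM lay wholly under BAT and wholly above IWAT and Liver. The difference from the mean of the tissues was 2.73 ± 0.41 (adjusted p = 4.07e-06), from BAT -0.93 (adjusted p = 0.18), and from the mean of the 2 fats 0.76, where the call was lost.

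Genes of fatty acid oxidation were lower in muscle. Of 19 tested, 16 were lower and none was higher than the mean of the other tissues, with a median of -0.97; 2 were lower than in each tissue, among them Ehhadh (-3.81), which acts in peroxisomes. Without BAT in the reference, 5 were lower. The summed level was 2388 to 5238 CPM in SM, 12950.5 to 25534 CPM in BAT, 2550.3 to 7795 CPM in IWAT and 8058 to 11177 CPM in Liver. Cpt1a, the liver form of the enzyme that admits fatty acids to mitochondria, had 9.73, 15.1 and 25 CPM in SM, within the BAT range of 7.75 to 27.9 CPM. It had 38.3, 53.5 and 95.2 CPM in IWAT and 182, 365 and 456 CPM in Liver, and differed by -2.16 ± 0.28 (adjusted p = 6.68e-07). Cpt1b, the muscle form, had 1.61, 3.15 and 5.63 CPM in SM and 1.72, 3.88 and 5.04 CPM in BAT. These ranges coincided, while IWAT reached 1.77 CPM and Liver had 1 count in all. Cpt1b differed by 3.01 ± 0.52 (adjusted p = 2.82e-05), by -0.10 against BAT (adjusted p = 0.90), and by 1.16 against the mean of the 2 fats, where the call was lost. Acacb, the mitochondrial acetyl-CoA carboxylase, did not pass the test (0.27, adjusted p = 0.72), with 130.3 to 193 CPM in SM, 495 to 918 CPM in BAT, 0.343 to 261 CPM in IWAT and 20.8 to 49.4 CPM in Liver. Its sign changed with the reference: -0.053 without IWAT and -0.75 without Liver.

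Of 24 genes of oxygen and lipid handling, 14 were higher and 4 lower, with a median of 1.78. Myoglobin (Mb, the oxygen store of oxidative fibres) had 3246, 7177 and 9930.2 CPM in SM. BAT had 4.56, 251 and 1546 CPM, IWAT 0.0818, 0.707 and 61.3 CPM, and Liver 0.492, 1.12 and 245 CPM. SM lay above all other libraries, and Mb differed by 6.83 ± 1.20 (adjusted p = 3.45e-05). Against BAT alone the difference was 3.81 (adjusted p = 0.069), and without the 3 BAT libraries the difference from the mean of the tissues was 8.76. Plin2, a coat protein of lipid droplets, was lower than in each tissue (-5.09), as was Acsl1 (-2.18).

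Secreted factors were divided. Of 18 tested myokine and growth factor genes, 9 were higher and 3 lower, with a median of 0.83 (0.68 with genes at 0 set to their bound). Mstn, which encodes the growth inhibitor myostatin, had 113, 135 and 176 CPM in SM. It reached 11.1 CPM in BAT, 2.92 CPM in IWAT and 0.369 CPM in Liver, with no overlap, and differed by 7.18 ± 0.57 (adjusted p = 1.84e-10). Ostn had 30.6, 67.8 and 93.9 CPM in SM and reached 4.42 CPM in BAT; 3 counts in all were found in IWAT (ratio 1085, counting interval 371 to 5263). Fndc5, the precursor of irisin, differed by 6.83. Fgf21, a hormone of the fasted liver, had 1 count over the 6 SM libraries, and 3.19, 4.4 and 15.3 CPM in Liver. The ratio of Liver to SM was 354 (counting interval 63.1 to 14035). Angptl4 (-3.42) and Igf1 (-1.93), both also made by liver or fat, were lower in muscle.

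Of 20 genes of protein breakdown, 10 were higher and 5 lower, with a median of 0.55. These are 50 and 25 percent, against 27.6 and 30.0 percent of all tested genes. The higher members included the ubiquitin ligases restricted to striated muscle. Trim63 (MuRF1) had 262, 394 and 433 CPM in SM and reached 63.9 CPM in BAT, 6.14 CPM in IWAT and 3.79 CPM in Liver. It did not overlap with SM in any tissue and differed by 7.19 ± 0.90 (adjusted p = 2.97e-07), and by 8.98 without the 3 BAT libraries. Fbxo32 (atrogin-1), Trim54 and Fbxo40 differed by 5.97, 7.19 and 7.47, whereas the general proteasome subunits Psma1 (-0.13, adjusted p = 0.69) and Psmd11 (0.35, adjusted p = 0.085) did not pass the test. The transcription factor Foxo1 (-1.19) was lower than in each tissue.

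Matrix genes were for the most part higher in muscle than in the mean of the tissues, but few were higher than in each tissue. Of 21 fibroblast and collagen genes, 12 were higher and 1 lower, with a median of 0.80; 2, Tnmd and Thbs4 (6.75), were higher than in each tissue. The list's summed level was 2414 to 4037 CPM in SM (median 3097), 687 to 1339 CPM in BAT, 2935 to 11421 CPM in IWAT (median 4907) and 747 to 1131 CPM in Liver. Tnmd, which encodes tenomodulin of tendon, had 87.3, 155 and 286 CPM in SM. No other library exceeded 2.91 CPM, and the difference was 8.64 ± 0.54 (adjusted p = 4.62e-12). Kera, which encodes the proteoglycan keratocan, had 10.02, 23.5 and 50.7 CPM in SM and no count in BAT (at least 77.8-fold higher in SM). Chad, a matrix protein of cartilage and tendon, had 42.5, 75.8 and 268 CPM in SM and 1 count in all in IWAT, a ratio of 5458 (counting interval 979 to 215614). Cilp2 had 22.6, 57.1 and 92.1 CPM in SM and at most 0.885 CPM elsewhere. In Liver3114 Kera, Chad, Tnmd and Cilp2 stood at 4.64, 3.10, 1.65 and 1.53 percent of their SM means, and in every other library outside muscle at no more than 0.655 percent. Col1a1, the main collagen of tendon and connective tissue, had 355, 633 and 826 CPM in SM and 254, 392 and 1362 CPM in IWAT, which overlapped. It differed by 2.86 ± 0.38 from the mean of the tissues (adjusted p = 8.87e-07) and by -0.06 from IWAT (adjusted p = 0.93). How much tendon the dissected muscles held was not tested.

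Markers of other cells gave a further check on the muscle libraries. Of 13 endothelial markers, 2 were higher and none lower, with a median of 0.27. Of 8 nerve and Schwann cell markers, 6 were higher and 1 lower (median 1.97, and 1.56 at the bounds), but none was higher with Liver left out of the reference; their summed level was 92.2 to 174 CPM in SM, 74.8 to 233 CPM in BAT and 4.39 to 9.61 CPM in Liver. Of 17 macrophage markers, 13 were lower, with a median of -1.52, but only 2 were lower than in each tissue. Their summed level had a median of 152 CPM in SM, 145 CPM in BAT, 594 CPM in IWAT and 752 CPM in Liver. Of 6 blood cell markers, 3 were lower. Of 11 lymphocyte markers, 9 were lower (median -3.66), but only 1 was lower than in each tissue. The lymphocyte sum reached 682 CPM in a BAT library and 2804 CPM in an IWAT library, against medians of 18.2 and 66.9 CPM. Its median in SM was 24.2 CPM, and 4 markers were lower without BAT3106. Under MR, 6 macrophage markers were lower and none higher, and no lymphocyte marker was lower and 1 was higher. Of 21 markers of white or general fat, 13 were lower and 2 higher (median -1.74). The brown fat list had 13 lower and 6 higher of 21. The higher ones included Cox7a1, Cox8b (2.66) and Fabp3 (4.08), which are also muscle genes, and 2 genes of the list were higher without Liver in the reference.

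The genes lowest in muscle relative to the other tissues were mostly those of liver and fat metabolism. All 25 tested hepatocyte markers were lower, 20 of them than in each tissue, with a median of -6.97 (-5.95 without the 3 BAT libraries, and -6.70 with the 2 genes at 0 in SM set to their bound). Their summed level was 94.8 to 453 CPM in SM and 268814 to 404063 CPM in Liver. It was also 5126 to 8748 CPM in BAT and 4393 to 19132 CPM in IWAT, and Alb, the plasma albumin gene, had 7945 CPM in IWAT3103 and 2459 CPM in BAT3106. The part of such transcripts in the difference from the fats was not tested. Among the 10 largest decreases by the naming rule, Apoc1 and Apoc3 (-7.62) act in lipoprotein metabolism, and Slc27a2, Elovl3 and Acaa1b (-7.03) in the activation, elongation and peroxisomal breakdown of fatty acids. Trfr2 (-6.93) encodes a transferrin receptor of liver and Mal2 (-6.54) a membrane trafficking protein.

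Cpn2, a subunit of carboxypeptidase N, had 3 counts over the 6 SM libraries. It had 19.1, 33.1 and 42.2 CPM in BAT, 0.763, 1.74 and 14.3 CPM in IWAT, and 195, 339 and 565 CPM in Liver. All SM libraries lay under all others, and the ratio to SM was 535 in BAT (counting interval 183 to 2595), 84.6 in IWAT (28.6 to 413) and 6604 in Liver (2259 to 32026). Elovl3, an elongase of brown fat and liver, had 0.306, 0.57 and 0.737 CPM in SM and 168, 256 and 337 CPM in BAT. IWAT had 2.48, 11.3 and 68.8 CPM and Liver 208, 295 and 664 CPM. The difference was -7.87 ± 0.76 (adjusted p = 5.01e-09). Slc27a2, a transporter that activates very long chain fatty acids, had at most 0.748 CPM in SM, and 39.6 to 94.7 CPM in BAT, 1.65 to 26.3 CPM in IWAT and 724 to 1231 CPM in Liver, a difference of -8.53 ± 0.74 (adjusted p = 8.52e-10). Apoc1 had 0.102 to 3.53 CPM in SM, and its lowest library elsewhere had 18.7 CPM. Gys2, the liver glycogen synthase, had 0.102, 0.332 and 1.07 CPM in SM, 45.5 to 78.4 CPM in BAT, 19.9 to 47.7 CPM in IWAT and 150.3 to 295 CPM in Liver. It lay under all others in muscle and differed by -7.26 ± 0.42 (adjusted p = 1.67e-12), while Gys1, the muscle form, differed by 3.60.

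The muscle transcripts in BAT were not a uniform fraction of the gastrocnemius profile. In BAT3112, the median fast gene stood at 12.5 percent of its SM mean and the median slow gene, over 15 genes, at 59.5 percent. In BAT3114 these were 6.03 and 32.5 percent, and in BAT3106 3.17 and 18.8 percent. In the other 3 BAT libraries the fast medians were at most 0.124 percent and the slow medians 0.282 to 0.664 percent. Among single genes in BAT3112, Myl2 reached 98.4 percent, Myog 77.6 percent, Myh7 64.8 percent, Myod1 23.7 percent and Ckm 11.1 percent of the SM mean. The tendon and cartilage matrix genes Chad, Cilp2, Tnmd and Kera were at most 0.579 percent there, and Six2 was at 0.485 percent. Scx, a transcription factor of tendon cells chosen after its values were seen, went with the muscle genes instead, at 38.8 percent in BAT3112, 18.0 in BAT3114 and 7.83 in BAT3106, and at most 1.55 percent in the other BAT libraries. In those 3 libraries the slow genes thus stood at a larger percentage of their SM means than the fast genes, and genes linked to tendon did not behave alike. In the gastrocnemius of the same animals, the median slow gene stood at 76.5 (SM3112), 80.5 (SM3114) and 34 percent (SM3106). The source of the muscle transcripts in BAT was not tested. Outside BAT, the summed muscle genes were highest in IWAT3114, at 1.08 percent of the SM mean, and Liver3114, at 0.541 percent.

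**Figure D5:**
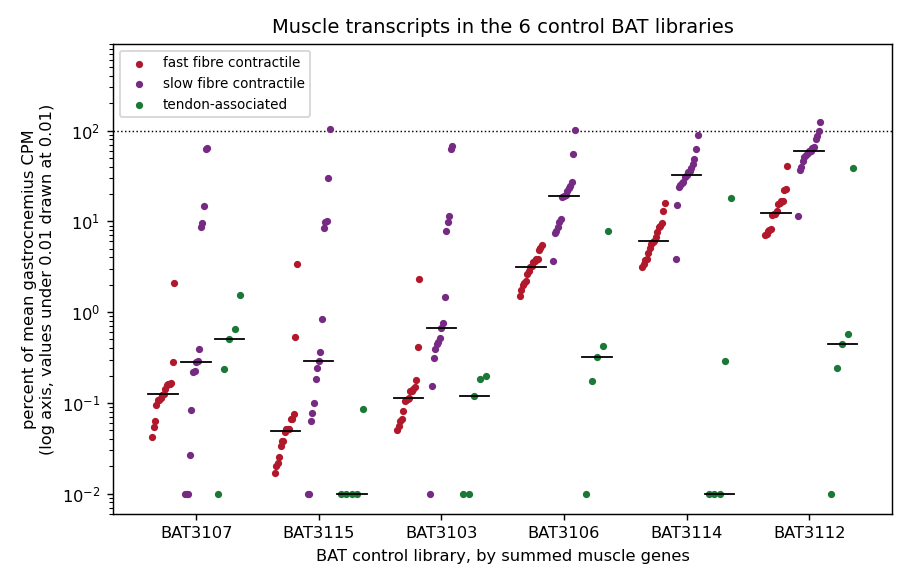
Level of fast fibre and slow fibre genes and of 5 tendon-associated genes (Chad, Cilp2, Kera, Tnmd and Scx) in each BAT control library, as percent of the gene's SM mean (log axis), with 1 point per gene, bars at the medians and values under 0.01 drawn at 0.01. In BAT3112 the slow genes have a median of 59.5 percent and the fast genes of 12.5 percent, while the tendon-associated genes stay at or under 0.579 percent except Scx, at 38.8 percent.

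The contrast was read again in the MR libraries, which come from other animals and share no library with it. Of 12666 genes tested there, 3170 were higher in muscle (25 percent) and 2878 lower (22.7 percent). Among 12457 genes tested under both diets, 2467 were called higher in both, 73.0 percent of the control calls and 78.7 percent of the MR calls. Called lower in both were 2433 genes, 64.2 percent of the control calls and 85.4 percent of the MR calls. No gene was higher under the control diet and lower under MR, and 8 were lower under the control diet and higher under MR. SM3101 and IWAT3116 stood apart in this set, with median rank correlations of 0.637 and 0.709; without them 3666 genes were higher, 3957 lower, and 6 opposite. Under MR all 16 fast genes, 38 of 39 scaffold genes and 24 of 28 coupling genes were higher, and 22 of 25 hepatocyte markers were lower. Of 44 oxidative phosphorylation genes, 9 were higher and 2 lower under MR, where 25 percent of all tested genes were higher and 22.7 percent lower. Ckm differed by 8.07 and Mb by 6.31 there, and Six2 by 9.16. The difference between diets in this contrast was not tested.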

How the data were processed

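Expression was measured as raw tag counts per gene symbol, which the authors deposited as whole numbers in 1 table per tissue. Per the labels, libraries were made by SOLiD SAGE from 7 to 12 ng of total RNA extracted with Trizol, and the counts hold fragments with a unique hit in the mouse RefSeq genes. The submitters' processing notes name the builds mm10 and GRCm38.p1 and the tool DESeq; neither aligner nor counter is named in these sources (not given in the sources used here). A normalized table that the authors made was not used.

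The 4 raw tables were joined on 26583 symbols; 25 symbols in the form of dates were not joined. Genes were kept with filterByExpr (minimum count 10), which left 12854 genes with 99.3 to 99.9 percent of the counts of each control library. The 24 control libraries were fitted together with TMM factors in edgeR 4.0.16 (R 4.3.3), with 1 mean per tissue, and tested by its quasi-likelihood method. The contrast was muscle minus the mean of the other 3 tissue means on the log2 scale, and each pairwise contrast was tested too. P-values were adjusted by the Benjamini-Hochberg method over all tested genes, with a threshold of 0.05. Each SE is the absolute log2 difference over the square root of the F statistic. CPM used TMM-scaled library sizes. The 23 MR libraries were fitted separately in the same way. Each animal was a replicate, and its number in the labels pairs its tissues; the correlation of deviations between tissues of the same animal averaged -0.04 to 0.12 over the 6 pairs of tissues, and the fit with the animal as a term was an alternative.

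Named genes were the 15 largest increases and 10 largest decreases past the threshold, with at least 20 counts on average in the higher group and every SM library on one side of all others, leaving out predicted genes, and all members of 26 gene lists and 37 isoform families; some of these genes are not reported here by name. The members and lists were chosen with earlier results of these data known. Positions and promoters come from RefSeq (GRCm38.p6), which matched all 252 named genes. Tags were looked up for 258 genes, and 9 shared at least 1 of their tags with another gene, among them Atp5g1, Hba-a1, Hba-a2, Pgam1, Phkg1, Rplp0, Tpm3 and Trf. Tested on simulated counts for this contrast, the script recovered 49 of 49 increases and 47 of 49 decreases of 8-fold, and 26 of 50 increases and 16 of 49 decreases of 2-fold, with 5 of 12226 unchanged genes called. The simulated tissues shared the same mean profile apart from few genes changed in SM, unlike the real tissues, so these rates need not hold there. Alternatives used DESeq2 1.42.0 and limma 3.58.1 (voom), other size factors and filters, a test against a 2-fold change, references lacking 1 tissue, and each replicate left out in turn; those without the BAT, IWAT or MR libraries that stood apart or held muscle transcripts were chosen after seeing the data.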

Additional observations from a re-analysis of the deposited data

Results flagged for a closer look

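Of 164 groups of 6 libraries examined, 152 were of 46 genes in the 4 tissues and 12 of the summed muscle genes, total counts and genes detected; 32 groups of a gene and a tissue with 3 or more libraries at 0 were left out. Of the 164, 19 had a highest or lowest library far from the others, with a gap above Dixon's 95 percent critical value for the group's range; chance alone flags about 1 in 20 groups. Of the 19, 14 were in Liver3114, which was the highest of its tissue for muscle transcripts.

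In that library Ckm was at 527 CPM (others 5.19 to 24.1), Mb at 245, Acta1 at 18.7, Myh1 at 39.1, Myh2 at 75.1 and Myl2 at 6.19 CPM. Tnnt3 was at 20.4, Ryr1 at 7.96, Pygm at 9.99, Pgam2 at 8.22, Eef1a2 at 13.8 and Trim63 at 3.79 CPM. Slc25a4 was at 138 CPM, against 22.5 to 29.7 CPM in the other Liver libraries, and the sum of the 20 muscle genes was 1564 CPM, against 51.3 to 175. IWAT3114, from the same animal, was the highest of its tissue for Myh2, at 43.3 CPM.

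Among muscles, Cacng1 was lowest in SM3107, at 77.5 CPM against 224 to 393 CPM in the others. Pygl was highest in SM3103, at 16.6 CPM against 5.97 to 6.93 CPM. In BAT, Cox6a1 was lowest in BAT3106, at 1601 CPM against 2260.4 to 2686 CPM. In IWAT, the total count was lowest in IWAT3112, at 4881391 counts against 6332036 to 7085170.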

How the results depend on the processing

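Most main results kept their size under the alternatives, which does not say whether the same genes were called. Of these values, 336 stayed close to the one reported and 12 did not. For counts of genes and of isoform families, close meant within 1.5 times. For the highest share of muscle transcripts in BAT, it meant within the spread of the SM libraries. Requiring more than a 2-fold difference left 1636 genes higher and 1891 lower than the mean of the tissues, and 753 and 543 against each tissue. Under MR it left 1562 and 1399. Of these, 1458 and 1338 were among the main control calls, made without the 2-fold requirement. With BAT out of the reference, 2121 genes were lower than in each remaining tissue. With IWAT out, 2574 were higher and 2485 lower than in each. With Liver out under MR, 1619 of the lower genes were also lower in the main control calls, which kept Liver. The last 4 counts each involve a comparison of muscle with fewer tissues.

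Leaving out 1 replicate at a time, the counts ranged from 3357 to 3913 higher, 3588 to 4208 lower, 1423 to 1817 higher than in each tissue and 1148 to 1583 lower than in each. With the animal as a replicate block they were 3514, 3636, 1503 and 1165. Then 26 isoform families in place of 27, including the 4 with no other member tested, had a higher muscle-type member and no other higher one. Under MR the block gave 2496 higher and 2541 lower. Of these, 2203 and 2250 were among the main control calls, made without the block. Under the block Ccr7 (-2.39) lost its call and Flna (1.30) gained one. The pairing changed no other call among the single genes compared, which leave out some genes reported here, such as Agrn and Myl2.

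For single genes and lists, 11356 values were alike, 83 counts moved, 88 calls were lost, 69 gained and 11 values changed sign. With Liver out of the reference the sign changed for Ampd3 (-0.49), Idh3a (-0.51), Pecam1 (-0.21), Pf4 (-0.058) and Acacb (-0.75). With IWAT out it changed for Acacb (-0.053), Cdh5 (0.0092) and Atp2a3 (0.55), and with BAT out for Hk1 (0.36). Atp2a3 was also 0.40 with limma voom and ran from -0.43 to 0.028 with 1 replicate left out, the latter without IWAT3107. The cause was not tested. No scaling moved the median of all genes by over 0.1. Depth limits genes near 3 counts per library, where fitted differences rest on the prior count.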

Other observations

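Genes that pattern the body axis and the limb also set the muscle libraries apart; they were chosen after their values were seen. Hoxa10, Hoxc10 and Hoxd10, which mark posterior and distal positions, differed by 5.92 ± 0.73, 6.38 ± 0.59 and 5.74 ± 0.45 on the log2 scale (SE; adjusted p = 9.65e-07, 1.90e-08 and 2.36e-09, edgeR). All 6 SM libraries lay above all 18 others for each of them. Liver had no count of any of the 3, so these fitted values depend on the prior count: the levels were at least 126-fold, 47.9-fold and 11.4-fold higher than in Liver. Hoxa10 did not pass the test against IWAT alone (1.15, adjusted p = 0.21).

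Tbx4, a T-box gene of the hindlimb, differed by 6.46 ± 0.56 (adjusted p = 8.91e-09) and was higher than in each tissue. It stood at 27.6 percent of its SM mean in BAT3112 and 23.5 percent in BAT3114. Scx, a transcription factor of tendon cells, differed by 5.34 ± 0.59 (adjusted p = 4.38e-08) and stood at 38.8 percent in BAT3112. Hoxb4, which marks anterior positions, went the other way, with -2.70 ± 0.19 (adjusted p = 2.56e-11) and every SM library under every other library.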
